A study of Mus musculus with 24 samples.

Results

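The passenger, or star, strands of mouse miRNAs were measured in 4 groups of mouse cells. They were taken as the assays whose name starts with mmu- and ends in * or #. The names miR-9* and miR-34c* and the large repeated families (miR-297, miR-302, miR-466, miR-467, miR-669 and the numbers from miR-674 to miR-720) were left out. This gave 97 star strands of 110 starred names, out of 517 mouse-named assays and 584 miRNA assays in all. For 91 of the 97 the guide strand of the same hairpin was assayed too, and for miR-33*, miR-463*, miR-483*, miR-199b*, miR-299* and miR-196a* it was not.

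A miRNA gene is transcribed as a hairpin, and the enzymes Drosha and Dicer cut it to a short RNA duplex. An Argonaute protein usually keeps 1 strand, the guide, and the passenger strand is discarded and degraded, so the star strand is often the scarcer product. Which strand is kept depends on the ends of the duplex and on the base at the 5′ end, and for some hairpins both strands enter Argonaute and repress targets. Bases 2 to 8 of the loaded strand, the seed, pair with the target, so the star strand of a hairpin addresses other mRNAs than its guide. The star names used here come from an older naming in which the star marked the strand thought to be scarcer.

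Each group had 3 replicates, run on TaqMan low density arrays, which hold a separate quantitative reverse-transcription PCR per well. CT-BM was primary mouse bone marrow. PYS was an adherent, epithelial-like line from a teratocarcinoma, and both L-1210 (lymphocytic) and M1 (myeloid) were lines from leukaemias, the lines at passage 3 and no group treated. The labels give bone marrow as flushed from long bones in 1 place, as a suspension culture in another and as stem cells in the title, so the state of CT-BM is not known. The labels name no strain, sex or age, and do not say whether replicates were separate cultures or animals, so the p-values measure only the spread between these samples.

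The threshold cycle (Ct) falls by 1 for each doubling of template. Throughout, a level is the negative delta Ct on the log2 scale, obtained by subtracting the Ct of the assay from the mean over snoRNA135, snoRNA202 and MammU6, taken within 1 card of a replicate. A strand was called not detected when it had not amplified by Ct 35. All 97 star strands were on card B, whose repeat wells had a median SD of 0.113 cycles. The controls themselves moved: against CT-BM the Ct of snoRNA202 on card B was lower by 2.09 cycles in PYS, 3.18 in L-1210 and 2.59 in M1, whereas that of MammU6 was 0.78 higher, 0.50 higher and 0.78 lower. Directions were therefore checked under 7 scalings in each comparison with CT-BM, between L-1210 and M1, and between PYS and the mean of both lines. The scalings were the 3 controls together, each alone, both snoRNAs without MammU6, the mean of the assays detected in all 12 replicates, and quantile normalization. Shares over all assays or all pairs are given below for the 3 controls together only. Counts under the other scalings, or under all of them, have no such share beside them.

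The guide-strand markers of cell types bore on the labels. Of the blood markers miR-142-3p, miR-223 and miR-150, all 3 were detected in every group, at a summed level of 1.49 to 1.67 in CT-BM, -11.44 to -10.97 in PYS, -5.11 to -2.92 in L-1210 and -2.11 to -1.89 in M1. All 4 embryonic stem cell markers (miR-291a-3p, miR-294, miR-295, miR-302a) were detected in PYS, at a summed level of -1.10 to -0.53, and 2 of 4 in CT-BM, at -13.51 to -13.04. Of the 3 epithelial markers, PYS had miR-200c alone (-11.84 to -11.48), and miR-141 and miR-203 were not detected there. All 3 were detected in CT-BM, at a summed level of -7.30 to -7.18, and in M1, at -9.55 to -9.49, and 2 in L-1210, at -10.66 to -9.62. PYS was thus the lowest on these markers, although labelled epithelial-like. CT-BM also had all 4 stromal markers (-6.29 to -5.70), both endothelial markers (-1.84 to -1.69), both muscle markers (-4.39 to -3.80) and both assayed erythroid markers (-5.96 to -5.80). Both endothelial markers were also detected in L-1210 (-5.08 to -4.58), M1 (-4.54 to -4.26) and PYS (-5.26 to -4.77), at lower levels. Both muscle markers were detected in PYS too (-14.45 to -13.99). Whether such cell types were present in CT-BM, and what they contributed to the differences from it, was not tested. In bulk RNA fewer cells of a type and less RNA per cell cannot be told apart.

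The sequences below are of strands that the results describe, written 5′ to 3′ with the seed (bases 2 to 8) in capitals. They were matched by name to RefSeq mature miRNAs of GRCm38.p6, where 57 of the 64 star strands detected in any group had an entry that could be shown. The first set is the miR-30a and miR-30e duplexes. The star strands share the seed UUUCAGU and differ by the single substitution G18A (miR-30a* base first, counted from the 5′ end), and the guides share the seed GUAAACA and differ by C13U. The miR-30a* strand lies at chr1:23272315-23272336 on the plus strand and miR-30e* at chr4:120772618-120772639 on the minus strand, within the span of the gene Nfyc.
miR-30a*: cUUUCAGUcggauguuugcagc
miR-30a: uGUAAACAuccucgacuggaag
miR-30e*: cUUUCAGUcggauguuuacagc
miR-30e: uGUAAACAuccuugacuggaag

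The second set shows a family whose guides share a seed while the star strands do not. The guides miR-15a, miR-15b, miR-16 and miR-322 all carry AGCAGCA and miR-503 differs within it, whereas each star strand has a seed of its own. The hairpins of miR-15a and miR-16-1 neighbour each other within Dleu2 on chromosome 14, those of miR-322 and miR-503 lie within C430049B03Rik on chromosome X, and that of miR-15b lies within Smc4 on chromosome 3.
miR-15a*: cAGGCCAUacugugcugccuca
miR-15a: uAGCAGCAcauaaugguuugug
miR-15b*: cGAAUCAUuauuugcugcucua
miR-16*: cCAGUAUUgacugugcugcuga
miR-16: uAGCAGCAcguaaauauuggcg
miR-322*: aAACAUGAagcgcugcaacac
miR-322: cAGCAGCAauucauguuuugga
miR-503*: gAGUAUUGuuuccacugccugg
miR-503: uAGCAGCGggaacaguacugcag

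The let-7 star strands likewise differ from each other within the seed, while the guides of all 5 members with an entry carry GAGGUAG.
let-7a*: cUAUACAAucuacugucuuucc
let-7d*: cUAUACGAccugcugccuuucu
let-7g*: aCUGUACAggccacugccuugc
let-7i*: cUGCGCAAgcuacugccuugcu
let-7g: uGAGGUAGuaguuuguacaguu

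The last set holds other strands whose level or strand difference is described further on.
miR-21*: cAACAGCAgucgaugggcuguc
miR-21: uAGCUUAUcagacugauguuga
miR-99b*: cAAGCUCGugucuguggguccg
miR-183*: gUGAAUUAccgaagggccauaa
miR-193*: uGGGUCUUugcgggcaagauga
miR-138*: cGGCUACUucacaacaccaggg
miR-31*: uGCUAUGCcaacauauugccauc
miR-455*: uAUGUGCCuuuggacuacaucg
miR-294*: aCUCAAAAuggaggcccuaucu
miR-7a*: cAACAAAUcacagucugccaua
miR-7a: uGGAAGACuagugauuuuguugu
miR-135a*: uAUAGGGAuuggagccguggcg
miR-181a-1*: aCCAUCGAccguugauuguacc
miR-877*: uGUCCUCUucucccuccuccca
miR-877: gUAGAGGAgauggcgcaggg

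The star strands miR-24-1* and miR-24-2* differ by 5 substitutions, and miR-30a* and miR-30e* by 1, and whether each assay separates them was not tested. Among the 57 star strands with a sequence, 9 (15.8%) began with U, 22 (38.6%) with C, 18 (31.6%) with A and 8 (14.0%) with G. Among the 54 guides listed beside them 32 (59.3%) began with U. The median GC content was 50.0% for the star strands and 43.2% for the guides. Of 56 pairs with both sequences, the guide alone began with U in 32 and the star strand alone in 7.

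Of the 97 star strands, 55 were detected in CT-BM, 53 in PYS, 51 in L-1210 and 49 in M1, in every replicate with a value. A star strand of a group was detected either in all of its replicates or in none. Detected in all 4 groups were 40 (41.2%), beside 36.4% of the 420 other mouse-named assays, and 33 (34.0%) were detected in none, beside 31.2%. The 33 include 12 of the 13 star strands of the imprinted Dlk1-Dio3 locus, where miR-376b* alone amplified. They also include star strands whose guides mark blood or connective tissue, such as miR-150* of the lymphocyte miRNA miR-150 and miR-145* of the smooth muscle and stromal miRNA miR-145. Both guides were detected in CT-BM.

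**Figure D1:**
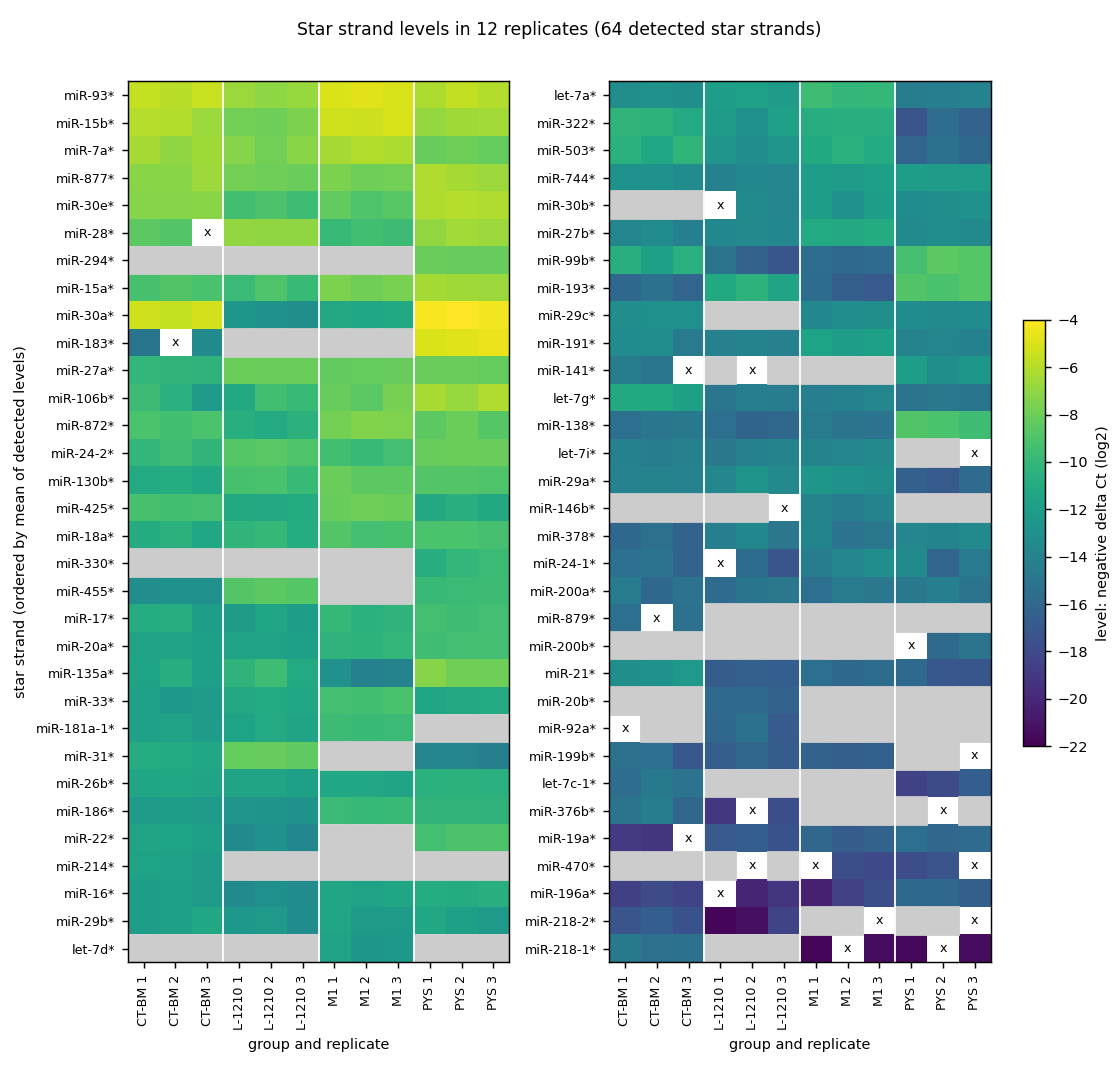
Level (negative delta Ct, log2, colour) of the 64 star strands detected in at least 1 group (rows, in 2 panels) in each of the 12 replicates (columns). Grey marks not detected and x an absent value; the 3 replicates of a group look alike in most rows, and whole groups of 3 turn grey together.

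The levels of the 64 spanned a wide range. In each group some of the same star strands were highest: miR-93*, miR-15b*, miR-7a* and miR-877* were among the highest 5 in both CT-BM and L-1210, and miR-93* was among the highest 5 in all 4 groups. The level of miR-93*, a star strand of the proliferation-linked miR-17 family, was -5.60, -5.95 and -5.49 in CT-BM, -6.24, -5.67 and -6.10 in PYS, -6.71, -7.09 and -6.80 in L-1210 and -5.01, -4.82 and -5.08 in M1. Its groups lay close together, with M1 above and L-1210 below all others. In PYS the 2 highest were miR-30a* and miR-183*. Levels of different assays depend on the efficiency of each assay, so this order is only approximate.

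Asked whether a star strand differed anywhere among the 4 groups, limma's moderated F passed at an adjusted p under 0.05 for 62 of the 64, beside 97.9% of all 378 miRNA assays tested. The 2 that did not were miR-29b* (adjusted p = 0.0740) and miR-200a* (adjusted p = 0.569). Among star strands detected in all groups, miR-30a* had the largest F. Its level was -5.31, -5.56 and -5.21 in CT-BM and -4.17, -3.95 and -4.32 in PYS, but -12.47, -12.84 and -13.10 in L-1210 and -11.12, -11.28 and -11.04 in M1. Both leukaemia lines were thus far below the other groups, with no overlap.

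Against CT-BM, L-1210 had 37 of 58 star strands changed by limma (a change of 2-fold or more with an adjusted p under 0.05). Of these 15 were higher and 22 lower, where 68.5% of the 333 assays tested changed (22.5% higher, 45.9% lower). The median change was -0.71 over the star strands and -0.82 over all assays, with undetected groups at the Ct limit. The split depended on the control: with MammU6 alone 33 rose and 12 fell, and with snoRNA202 alone 6 rose and 41 fell. The median over all assays moved too, to 1.05 with MammU6 alone and -2.47 with snoRNA202 alone. Under all 7 scalings 6 star strands were higher and 12 lower. The largest measured decreases among those 12 were in miR-30a*, which was 174-fold lower (log2 change -7.44, SE 0.22, limma adjusted p = 2.29e-12), and miR-99b*, from the cluster with let-7e and miR-125a, which was 35.6-fold lower (-5.16, SE 0.47, adjusted p = 2.98e-07). The replicates of miR-99b* were -10.69, -11.80 and -10.55 in CT-BM and -15.07, -16.25 and -17.17 in L-1210, so the decrease exceeded a wide spread in L-1210. The star strand miR-21*, of the broadly expressed cancer-linked miR-21, was 15.0-fold lower (-3.91, SE 0.34, adjusted p = 1.81e-07). Among the 12 are also strands not detected in L-1210, of which miR-214* was at least 1522-fold and miR-29c* at least 640-fold lower.

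The increases in L-1210 that held under every scaling were miR-193*, miR-455*, miR-31*, miR-30b*, miR-20b* and miR-92a*. The level of miR-193* was -16.01, -15.19 and -16.12 in CT-BM and -11.09, -10.39 and -11.52 in L-1210, a rise of 27.4-fold (log2 4.77, SE 0.38, adjusted p = 7.98e-08). The level of miR-455*, whose hairpin lies within the cartilage collagen gene Col27a1, rose from -13.20, -12.83 and -12.94 to -8.81, -8.55 and -8.78, or 19.4-fold (adjusted p = 7.13e-10). The level of miR-31* rose 6.83-fold, from -10.86, -11.03 and -11.28 to -8.27, -8.22 and -8.37. The other 3 were not detected in CT-BM, so their folds are bounds: miR-30b* was at least 150-fold higher, miR-20b* at least 29.4-fold and miR-92a* at least 24.5-fold. The absent group sat at the Ct limit in each case.

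The sign of some other changes in L-1210 turned with the control. The decreases of miR-15b* (-1.51), miR-16* (-1.26), miR-22* (-1.65), miR-322* (-1.71), miR-425* (-1.68), miR-872* (-1.47) and miR-93* (-1.19) had a positive sign with MammU6 alone. The increases of let-7a* (1.06), miR-130b* (1.61), miR-135a* (1.12), miR-24-2* (1.16), miR-33* (1.00) and miR-378* (1.61) had a negative sign with snoRNA202 alone. The decrease of miR-218-2* (-3.33) turned positive with quantile normalization. Without CT-BM replicate 1 the let-7a* change fell to 0.99, below 2-fold, and without L-1210 replicate 2 to 0.95. The miR-33* change, at the 2-fold limit, lay between 0.87 and 0.99 without CT-BM replicate 2 or 3 or L-1210 replicate 1 or 2. The call of miR-135a* was lost without CT-BM replicate 1 (adjusted p = 0.0763), CT-BM replicate 3 (adjusted p = 0.0997) or L-1210 replicate 2 (adjusted p = 0.122).

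Against CT-BM, M1 had 41 of 59 star strands changed, 24 higher and 17 lower, where 69.5% of 325 assays changed (25.2% higher, 44.3% lower). The median was 0.39 over the star strands and -0.59 over all assays. With MammU6 alone 33 rose and 15 fell, and with snoRNA202 alone 14 rose and 23 fell, and under all 7 scalings 14 were higher and 14 lower. The median over all assays was -0.01 with MammU6 alone and -1.03 with snoRNA202 alone. The largest measured increase was let-7a*, at -13.11, -12.79 and -13.01 in CT-BM and -9.61, -10.05 and -9.99 in M1, or 8.50-fold (log2 3.09, SE 0.22, adjusted p = 2.82e-08). The star strand miR-19a*, of the miR-17 to miR-92 cluster, rose 6.91-fold, from -18.95 and -19.32 to -16.07, -16.68 and -16.28, where CT-BM had 2 values. The level of miR-33*, of the hairpin within the sterol regulator gene Srebf2, rose 6.92-fold, and that of miR-27b* rose 6.73-fold (adjusted p = 1.58e-07). The M1 values of all 4 stood apart from those of CT-BM.

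Among decreases in M1, miR-30a* was 55.1-fold lower (log2 -5.79, SE 0.22, adjusted p = 2.54e-11) and miR-99b* 25.5-fold lower (-4.67, SE 0.47). Both had a value in every replicate, and neither group overlapped CT-BM. The star strands miR-31*, miR-22* and miR-455* were not detected in M1 and were at least 3101-fold, 2098-fold and 813-fold lower. Their levels in CT-BM were -10.86, -11.03 and -11.28 for miR-31*, -11.51, -11.58 and -11.77 for miR-22* and -13.20, -12.83 and -12.94 for miR-455*, so these are bounds from clear signals. The star strand miR-21* was 7.80-fold lower (-2.96), with 6 of the 7 scalings calling it lower.

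Against CT-BM, PYS had 47 of 60 star strands changed, 29 higher and 18 lower, where 78.7% of 362 assays changed (40.1% higher, 38.7% lower). The median was 0.95 over the star strands and 0.08 over all assays. With MammU6 alone 42 rose and 12 fell, and with snoRNA135 alone 18 rose and 23 fell, and under all 7 scalings 18 were higher and 12 lower. The median over all assays was 1.84 with MammU6 alone and -0.84 with snoRNA135 alone. The largest measured increase was miR-183*, of the sensory and epithelial miR-183 cluster, at -14.99 and -13.39 in CT-BM, which lacked 1 value, and -4.99, -4.90 and -4.53 in PYS. This was a log2 change of 9.39 (SE 0.43, adjusted p = 5.22e-10). The level of miR-193* rose 115-fold to -8.88, -9.17 and -8.73 (6.85, SE 0.38). That of miR-138*, a star strand of a miRNA known from neurons, rose 58.2-fold from -15.44, -14.95 and -14.71 to -8.88, -9.07 and -9.57 (adjusted p = 2.55e-10). That of miR-106b* rose 21.1-fold, from -9.65, -10.55 and -12.24 to -6.38, -6.75 and -6.11 (4.40, SE 0.58), with a wide spread in CT-BM.

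The largest measured decrease in PYS was in miR-218-1*, from -14.70, -15.38 and -15.28 in CT-BM to -21.60 and -21.37, close to the Ct limit (log2 -6.37, SE 0.32, adjusted p = 4.28e-09). It was followed by both star strands of the X-linked miR-322 and miR-503 pair. The level of miR-322* was -10.20, -10.39 and -10.99 in CT-BM and -17.24, -15.49 and -16.32 in PYS, or 56.5-fold lower (log2 -5.82, SE 0.42, adjusted p = 2.07e-08). That of miR-503* was -10.53, -11.27 and -10.25 in CT-BM and -16.11, -15.25 and -15.90 in PYS, or 33.5-fold lower. Of the star strands, miR-21* fell 16.3-fold, from -13.03, -12.81 and -12.25 to -15.85, -17.12 and -17.19, and let-7g* 12.5-fold, from -11.08, -11.10 and -11.74 to -15.05, -14.82 and -14.97. All 5 fell under every scaling. Not detected in PYS were let-7i*, miR-181a-1*, miR-199b* and miR-214*. Of these, miR-214* was at least 1251-fold lower and miR-181a-1*, whose guide regulates lymphocyte signalling, at least 1222-fold.

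**Figure D2:**
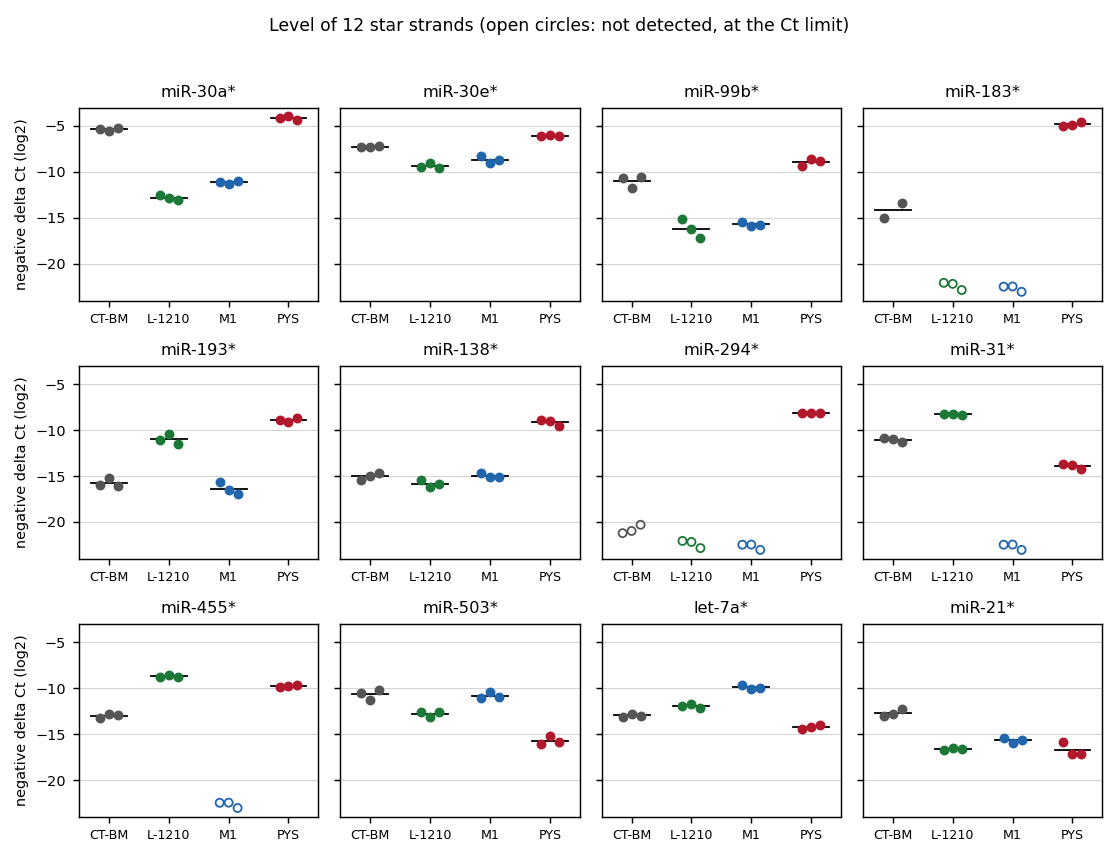
Level (negative delta Ct, log2) of 12 star strands in the 3 replicates of each group, with group means as bars and open circles where a group was not detected and is drawn at the Ct limit. The miR-30a* and miR-99b* strands were low in L-1210 and M1, miR-183* and miR-294* were high in PYS, and miR-31* and miR-455* were absent from M1 alone.

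Some star strands were detected in a single group. Of the 97, 3.1% were detected in PYS alone, beside 7.6% of the other mouse-named assays. In CT-BM alone the shares were 2.1% and 2.6%, in L-1210 alone 2.1% and 1.4%, and in M1 alone 2.1% and 0.7%. The star strands detected in PYS alone were miR-294*, miR-330* and miR-200b*. The level of miR-294*, from the hairpin cluster miR-290 to miR-295 that marks embryonic stem cells, was -8.14, -8.18 and -8.17. It was at least 6516-fold above CT-BM with the 3 controls together, and its log2 change ran from 11.49 to 14.69 across the scalings. The guide miR-294 was detected in CT-BM too, and not in L-1210 or M1, so its detection was not confined to PYS. Its level was nevertheless higher in PYS than in CT-BM. In PYS the guide level lay above that of miR-294*, whereas in CT-BM the embryonic stem cell markers, miR-294 included, summed to at most -13.04. In M1 alone these were let-7d*, at -11.61, -12.46 and -12.42 and at least 407-fold above CT-BM, and miR-146b*, of an NF-kappaB-induced immune miRNA, at -13.95, -14.46 and -13.94 and at least 105-fold above it. In L-1210 alone they were miR-20b* (-15.85, -15.76, -16.26) and miR-92a* (-15.95, -15.27, -16.86). In CT-BM alone they were miR-214* (-11.54, -11.68, -12.15), whose guide miR-214 is a stromal marker that was also detected in no other group, and miR-879* (-15.39 and -15.31). Conversely, miR-30b* was absent from CT-BM alone, and miR-29c* from L-1210 alone together with miR-218-1*. The star strand miR-470* was detected in M1 and PYS, at levels of -17.71 and -18.00 and of -17.73 and -17.29.

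Between the leukaemia lines, 38 of 56 star strands differed, 10 higher in L-1210 and 28 lower, where 56.2% of 306 assays differed (25.5% higher, 30.7% lower). With MammU6 alone 13 were higher and 11 lower, and with snoRNA202 alone 9 and 42. Between PYS and the mean of both lines, 43 of 62 differed, 27 higher in PYS and 16 lower, where 74.3% of 362 differed (46.1% higher, 28.2% lower). With snoRNA135 alone the split was 19 and 19, with MammU6 alone 33 and 11, and with quantile normalization 17 and 24. Under all 7 scalings miR-30a*, miR-30e*, miR-99b*, miR-183*, miR-193*, miR-138* and miR-106b* were higher in PYS than in the leukaemias, among 17 in all, and let-7a*, miR-29a*, miR-322* and miR-503* lower, among 11.

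Lists of related star strands gave mixed counts. They are set here beside the shares of all assays given above, which were 22.5% higher and 45.9% lower for L-1210. For M1 these shares were 25.2% and 44.3%, and for PYS 40.1% and 38.7%. Of the 8 star strands of the miR-17 to miR-92 cluster and its paralog clusters, 4 of 6 tested rose in M1 and 5 of 6 in PYS, and none fell, at a median of 1.57 and 2.01. In L-1210, 3 of 8 rose and 1, miR-93*, fell, which turned positive with MammU6 alone (median 0.61). The calls that held under all 7 scalings were 2 of 4 in L-1210, 2 of 4 in M1 and 3 of 5 in PYS, where miR-17* and miR-18a* passed in 3 scalings each. Of the 7 let-7 star strands, let-7b* and let-7f* were detected in no group; in PYS all 4 tested fell (median -3.05), although let-7a* among them had a positive change with MammU6 alone (0.77), which did not pass, and 2 of the 4 calls held under all 7 scalings. In M1 2 rose and 2 fell, and in L-1210 1 rose and 2 fell. The let-7 star strands therefore did not move alike: let-7g* fell in all 3 lines (-3.24 in L-1210, -2.77 in M1, -3.64 in PYS), whereas let-7a* rose in M1 under every scaling.

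Of the 5 miR-30 star strands, miR-30c-1* and miR-30c-2* were never detected. Of the other 3, miR-30a* and miR-30e* fell and miR-30b* rose in both L-1210 and M1, and all 3 rose in PYS. There the rises of miR-30a* (log2 1.22) and miR-30e* (log2 1.17) passed in 4 of the 7 scalings each, with lowest changes of 0.0369 and -0.0037, the latter with snoRNA135 alone. The level of miR-30e* was -7.30, -7.24 and -7.20 in CT-BM, -6.12, -5.98 and -6.11 in PYS, -9.42, -9.01 and -9.61 in L-1210 and -8.31, -8.98 and -8.70 in M1. The order of groups was the same as for miR-30a*, but the decrease was 4.28-fold in L-1210 and 2.67-fold in M1. Of the 3 miR-15 and miR-16 star strands, 2 fell in L-1210, where both turned positive with MammU6 alone, 2 rose in M1 and 2 rose in PYS, where miR-16* (1.16) turned to -0.0202 with snoRNA135 alone. Of these 6 calls the rise of miR-15a* in PYS alone held under all 7 scalings. The M1 rise of miR-15b* (1.01) was under 2-fold without CT-BM replicate 3 (0.79) or M1 replicate 3 (0.92). Of the 4 star strands of the clusters that hold miR-23, miR-27 and miR-24, 2 rose in PYS, 2 in L-1210 and 3 in M1, with none lower, although miR-24-2* in L-1210 turned negative with snoRNA202 alone. Under all 7 scalings 2 of the 3 calls in M1 held and none of those in L-1210 and PYS. The M1 call of miR-24-1* (1.81) was lost without CT-BM replicate 3 (adjusted p = 0.0865), M1 replicate 2 (adjusted p = 0.0506) or M1 replicate 3 (adjusted p = 0.0852). The level of miR-27a* rose by a similar amount in each line, from -10.09, -10.24 and -10.27 in CT-BM to -8.10, -8.14 and -8.25 in PYS, -8.03, -8.08 and -8.10 in L-1210 and -8.32, -8.28 and -8.20 in M1.

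The list named stromal held 6 star strands, namely miR-145*, miR-199b*, miR-214*, miR-21*, miR-22* and miR-31*, of which 5 were detected. In L-1210 3 fell, of which miR-22* turned positive with MammU6 alone, and 1 rose. In M1 4 fell, and in PYS 4 fell and 1 rose. In each line most of these calls came from miR-21*, miR-22* and miR-31*. Since miR-21 is broadly expressed, the counts do not describe stromal miRNAs alone. The riser in L-1210 was miR-31* and that in PYS miR-22*. Of the 5 epithelial star strands, miR-141* and miR-183* fell in both leukaemias, where they were not detected, and miR-141*, miR-183* and miR-200b* rose in PYS under all 7 scalings. Of their guides, miR-183 was detected in PYS and not in CT-BM, and miR-141 in CT-BM and not in PYS. In the list of miR-29, miR-26, miR-101 and miR-7 star strands, 1 of 5 fell in L-1210 (miR-29c*), 1 rose in M1 (miR-29a*) and 2 fell in PYS (miR-29a* and miR-7a*, the latter turning positive with MammU6 alone). Of these 4 calls that of miR-29c* alone held under all 7 scalings. The 3 comparisons share the CT-BM samples, so their counts are not independent.

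Star strands of neighbouring hairpins did not always move together. The hairpins of miR-106b and miR-93 lie side by side within the replication gene Mcm7 (miR-106b* at chr5:138165746-138165767 and miR-93* at chr5:138165536-138165557, minus strand). In PYS miR-106b* rose by 4.40 while miR-93* had a change of -0.33 that did not pass. The hairpins of miR-191 and miR-425 lie within Dalrd3 (miR-191* at chr9:108568367-108568388 and miR-425* at chr9:108568830-108568850). In PYS miR-425* fell by 1.64, a sign that turned with MammU6 alone, and miR-191* had a change of -0.26. By contrast, miR-322* and miR-503* (chrX:53054269-53054289 and chrX:53053987-53054008) both fell in L-1210 and PYS, and neither passed in M1 (-0.18 and -0.16). In L-1210 that of miR-322* turned positive with MammU6 alone. Differences between neighbours were not tested.

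Set beside their guides, most star strands were detected only where the guide was. Of the 91 pairs, both strands were detected in 47 in CT-BM, 48 in PYS, 46 in L-1210 and 43 in M1, and, in the same order, the guide alone in 26, 23, 24 and 20. The star strand alone was detected in 5 pairs in CT-BM, 3 each in M1 and PYS and 1 in L-1210. In CT-BM these were let-7a*, miR-183*, miR-193*, miR-455* and miR-879*, and in PYS let-7a*, miR-141* and miR-470*. The assay of the guide let-7a gave no signal in any CT-BM or PYS replicate, while in L-1210 and M1 it gave a mean level of -9.10 and -8.55 over 2 replicates each. The star strand let-7a* was detected in all 12 replicates. In L-1210 and M1 miR-99b* was detected, at Ct 28.0, 29.1 and 29.3 and at Ct 28.0, 28.4 and 27.7, where its guide miR-99b was not.

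**Figure D3:**
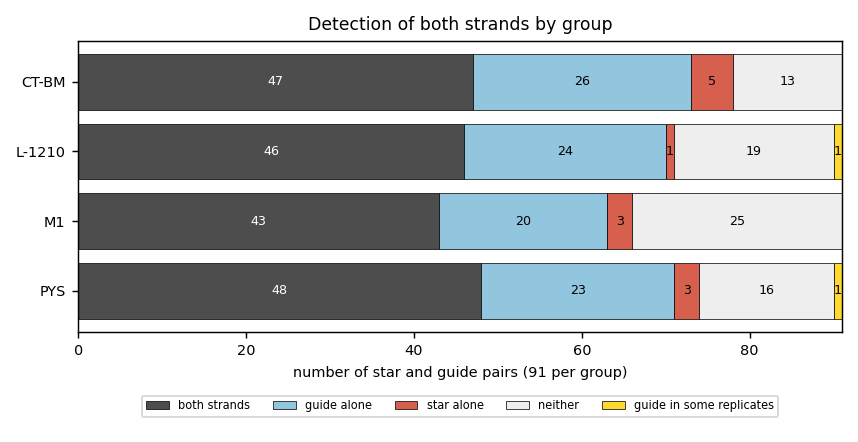
Number of the 91 star and guide pairs in each group (bars) in which both strands, the guide alone, the star strand alone or neither was detected, or the guide in only some replicates. Both strands were detected in 43 to 48 pairs, and the star strand alone in 1 to 5.

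The strand difference is the star level minus the guide level of the same replicate. In a single group it also holds the unequal efficiency of both assays and, for the 85 pairs with the guide on card A, the difference between cards, so its sign in 1 group compares assays and not amounts of RNA, and is given only as measured. Among pairs with both strands detected, the strand difference was negative in 41 of 47 pairs in CT-BM, 35 of 48 in PYS, 38 of 46 in L-1210 and 34 of 43 in M1. In the same order, the median strand difference was -3.89, -3.53, -4.07 and -3.03. It was lowest for miR-19a* in CT-BM (-14.76) and highest for miR-7a* there (7.60). Of the 34 pairs measured in all 4 groups, it was negative in every group in 23 and positive in every group in 5, namely miR-28*, miR-29b*, miR-7a*, miR-872* and miR-877*. The sign depended on the group in 6: miR-15a*, miR-15b*, miR-27a*, miR-30a*, miR-30e* and miR-503*. The highest and lowest group means of a pair differed by a median of 2.25.

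The change in level of star strand and guide of a pair was related but often unequal. Against CT-BM, Pearson's r across pairs was 0.46 for L-1210 (40 pairs), 0.60 for M1 (39) and 0.74 for PYS (41), with Spearman's rho of 0.61, 0.49 and 0.60. These are descriptions, since the pairs share replicates and control RNAs. The 2 changes were within 2-fold of each other in 21 of 40, 18 of 39 and 16 of 41 pairs, and had the same sign in 30, 27 and 33.

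**Figure D4:**
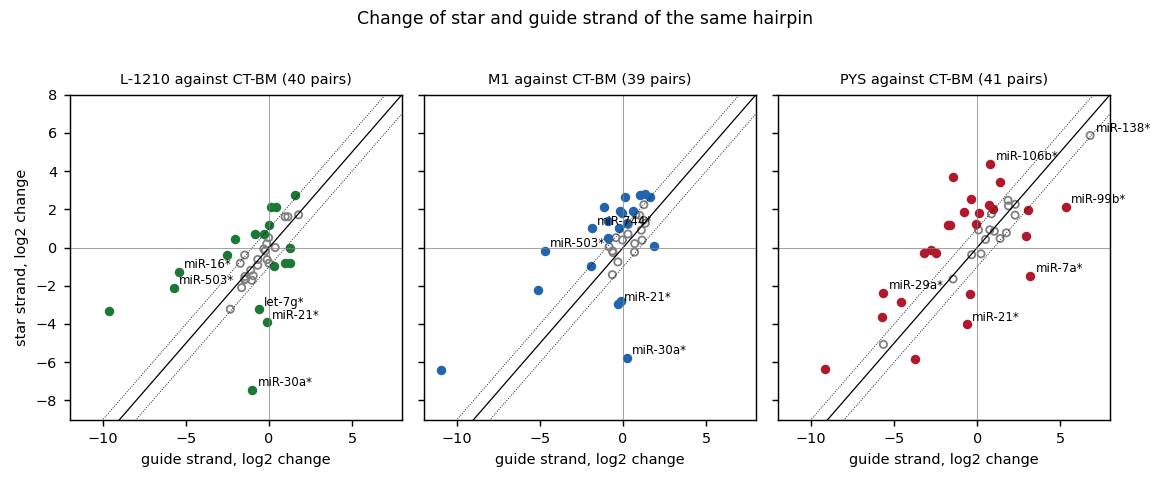
Log2 change of the star strand (vertical) against that of its guide (horizontal) in each line against CT-BM, for pairs with both strands detected in both groups; the solid line is equality and the dotted lines 2-fold. Filled points passed the test of the strand difference. The miR-30a* strand lies far below the line in L-1210 and M1, where its guide changed little.

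The strand difference varied among the groups in 33 of 34 star pairs, where 95.0% of all 40 mouse pairs tested did, and miR-20a was the pair that did not pass. In L-1210, 18 of 40 star pairs changed against CT-BM, 11 toward the star strand and 7 toward the guide, where 44.0% of 50 pairs changed (22.0% each way). In M1, 21 of 39 changed, 17 toward the star strand and 4 toward the guide, where 46.8% of 47 changed (36.2% toward the star strand, 10.6% toward the guide). In PYS, 25 of 41 changed, 18 and 7, where 62.0% of 50 changed (42.0% and 20.0%). The controls on the 2 cards moved unequally in M1, where the Ct of MammU6 fell by 2.17 cycles on card A and by 0.78 on card B. The M1 split was 28 and 3 with MammU6 alone and 10 and 7 without MammU6. That of L-1210 was 12 and 5 with MammU6 alone and 7 and 7 with the mean of assays, and that of PYS was 14 and 16 with the mean of assays. Across these 7 scalings and raw Ct, 6 pairs for L-1210, 7 for M1 and 14 for PYS were called toward the star strand every time, and 5, 2 and 6 toward the guide.

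The clearest shift was in miR-30a. Its strand difference was 1.13, 0.74 and 1.45 in CT-BM, 2.53, 2.36 and 2.31 in PYS, -4.47, -5.79 and -5.66 in L-1210 and -4.96, -4.60 and -5.10 in M1. It was thus far lower in both leukaemias than in CT-BM and PYS, with no overlap. The change was -6.41 (SE 0.35, adjusted p = 5.23e-09) in L-1210 and -5.99 (SE 0.34, adjusted p = 1.16e-09) in M1, and passed under every scaling and with raw Ct. The guide miR-30a changed by -1.03 in L-1210 and by 0.21 in M1. In PYS the change was 1.30 (adjusted p = 0.00302), passing in 7 of the 8 settings, with a lowest change of 0.33. The strand difference of miR-30e, whose star strand has the same seed, changed by -0.45 and -0.77 in the leukaemias, neither passing though the M1 value passed in 6 of the 8 settings, and by 2.83 in PYS (adjusted p = 1.96e-06).

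The pair of miR-21 shifted toward the guide in each line. The strand difference was -7.21, -6.75 and -6.12 in CT-BM, -8.88, -11.01 and -10.38 in PYS, -9.69, -11.01 and -10.72 in L-1210 and -9.21, -9.15 and -9.72 in M1. Its change was -3.78 for L-1210 (adjusted p = 3.59e-05), -2.67 for M1 (adjusted p = 0.000313) and -3.40 for PYS (adjusted p = 2.79e-05), with 7 of the 8 settings passing in M1. The guide miR-21 had changes of -0.13, -0.29 and -0.63 in that order of lines, and none passed. The pair of let-7g shifted toward the guide in L-1210 (-2.63) and M1 (-2.67) and toward the star strand in PYS (2.07, adjusted p = 8.15e-06). There the guide let-7g fell by 5.71 and let-7g* by 3.64.

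Pairs that shifted toward the star strand included the miR-15 and miR-16 family. For miR-16 the strand difference was -12.47, -12.06 and -12.45 in CT-BM, -9.22, -9.42 and -9.57 in PYS, -8.77, -7.36 and -8.37 in L-1210 and -10.85, -11.04 and -10.90 in M1. The change was 4.16 in L-1210 (adjusted p = 2.93e-07), 1.40 in M1 and 2.92 in PYS, the M1 value passing in 4 of 8 settings. The pair of miR-15a changed by 2.13, 2.30 and 2.88 for L-1210, M1 and PYS, passing under every setting in all 3 lines, and that of miR-15b had values of -0.06, 1.26 and -0.05 in that order, the M1 value passing in 3 of 8. The pair of miR-503 changed by 3.64 in L-1210 and 4.56 in M1 (adjusted p = 4.89e-07 and 6.95e-09), where the guide fell by 5.74 and 4.72 and miR-503* by 2.10 and 0.16. In PYS guide and star strand fell together and the change was 0.58, which did not pass.

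In M1 the pairs of miR-744 (2.89, adjusted p = 9.71e-08) and miR-181a-1 (3.27, adjusted p = 7.43e-06) also shifted toward the star strand under every setting, the latter in L-1210 too (2.48). In PYS the pair of miR-135a changed by 5.18, that of miR-106b by 3.60, that of miR-29a by 3.30, that of miR-191 by 2.97, that of miR-29b by 2.67 and that of miR-186 by 2.61. For miR-29a the guide fell by 5.67 and miR-29a* by 2.38. In L-1210 the pair of miR-106b changed by 1.57, a call that was lost without CT-BM replicate 3 (adjusted p = 0.0800) or L-1210 replicate 2 (adjusted p = 0.0652). That of miR-29a changed by 1.04, which was lost without any 1 of CT-BM replicates 1 to 3, L-1210 replicate 2, M1 replicate 2 or PYS replicate 1, at an adjusted p of up to 0.139. The pair of miR-218-2 changed by 6.31 in L-1210, with strand differences of -2.72, -4.05 and 0.14, a wide spread at levels of miR-218-2* of -21.78, -21.23 and -18.28, near the limit.

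**Figure D5:**
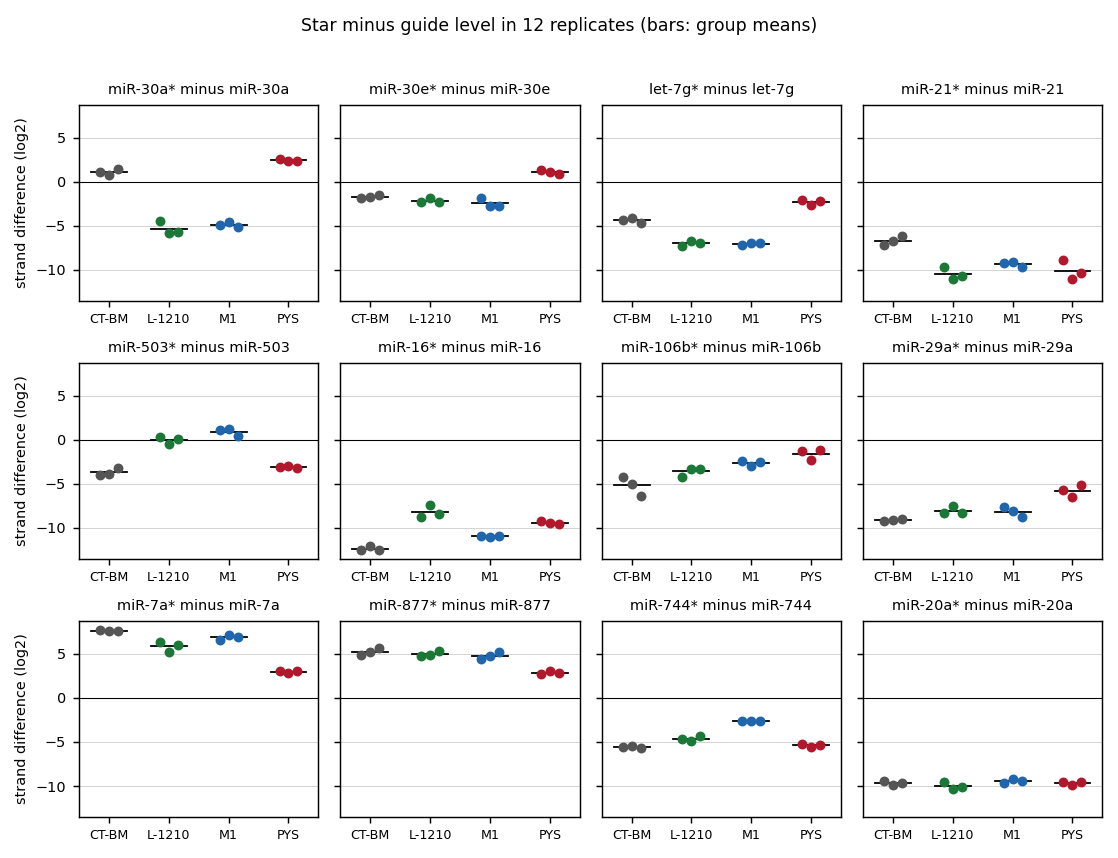
Strand difference (star minus guide level, log2) of 12 pairs in the 3 replicates of each group, with bars at the group means and a line at 0. The miR-30a pair lay above 0 in CT-BM and PYS and between -5.79 and -4.47 in L-1210 and M1, and the miR-20a pair stayed between -10.33 and -9.20 in all 12 replicates.

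The pairs of miR-7a and miR-877, with a positive strand difference in all groups, shifted toward the guide in PYS. The strand difference of miR-7a, of the Hnrnpk hairpin, was 7.69, 7.56 and 7.55 in CT-BM, 3.00, 2.79 and 3.03 in PYS, 6.37, 5.23 and 5.98 in L-1210 and 6.56, 7.09 and 6.89 in M1. Its change in PYS was -4.66 (SE 0.29, adjusted p = 1.07e-08), where the guide rose by 3.20 and miR-7a* fell by 1.46, the latter turning positive with MammU6 alone. The guide miR-7a has a copy on another chromosome, so its assay reads more than the hairpin that gives miR-7a*. The same limit holds for the guides miR-24 and miR-218, each listed under hairpins on different chromosomes. The star strands of miR-16, miR-135a, miR-138, miR-181a-1 and miR-29b were matched to numbered hairpins such as Mir16-1 and Mir135a-1. Their guide assays may thus read further hairpins, and how much of each shift comes from those was not tested. The strand difference of miR-99b changed by -3.20 in PYS, where the guide rose by 5.34 and miR-99b* by 2.13, the latter passing in 5 of 7 scalings.

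The 6 pairs with both strands on card B need no control, since it cancels. Of these miR-22, miR-378 and miR-877 were measured in CT-BM and PYS, and miR-300, miR-374 and miR-485 had no detected star strand. The strand difference of miR-877 was 4.82, 5.20 and 5.67 in CT-BM, 2.69, 3.04 and 2.84 in PYS, 4.79, 4.83 and 5.34 in L-1210 and 4.46, 4.69 and 5.24 in M1. Its change in PYS was -2.37 (SE 0.30, adjusted p = 8.15e-06), the guide rising by 2.96. That of miR-378 was 1.5 in PYS (SE 0.35, adjusted p = 0.00137) and did not pass in the leukaemias. That of miR-22 was -0.23 in L-1210 and 0.61 in PYS, neither passing.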

How the data were processed

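The deposited values are threshold cycles (Ct, in PCR cycles) for each well, with undetermined wells; per the file headers and the labels they come from 7900HT runs of 40 cycles, and how the authors set threshold and baseline is not given in the sources used here. Wells of an assay were averaged per replicate and card, undetermined wells or Ct over 35 were set to 35, and levels were taken against the mean of MammU6, snoRNA135 and snoRNA202. limma 3.58.1 (R 4.3.3) fitted 4 group means over 12 replicates, with Benjamini-Hochberg adjustment over all assays tested in a comparison; a call needs an adjusted p under 0.05 and 2-fold. An assay was tested if detected in every replicate with a value (at least 2) of a group compared. A fold against an undetected group is a bound under the 3 controls together, and its size changes with the scaling. Strand differences were fitted the same way over 149 mouse pairs, of which only those with both strands detected were tested. The fit was tested on simulated data. Named star strands are those with the largest F, the group-restricted ones, those with the largest changes in each comparison, and members of the lists. The members and lists were chosen with earlier results of these data known. Star names were matched to RefSeq arms by hand from naming history. Figures used matplotlib 3.10.9. Arrays per group, 3, limit the precision.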

Additional observations from a re-analysis of the deposited data

Results flagged for a closer look

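In 18 cases a star strand detected in CT-BM and in both of 2 lines had called changes of opposite sign against CT-BM. Opposite calls of strands not detected in 1 of these groups were left out here. For each, limma's contrast of the lines themselves passed (adjusted p of at most 9.54e-06). The opposite calls chose these cases, so a large difference was set by the choice and the p-values give no support of their own. Several of the signs turned with the control. With MammU6 alone those of miR-15b*, miR-16*, miR-22*, miR-425* and miR-872* turned in L-1210 and those of let-7a* and miR-425* in PYS. With snoRNA202 alone those of let-7a* and miR-135a* turned in L-1210, and with snoRNA135 alone those of miR-16* and miR-30e* in PYS. The lines share the CT-BM samples. Between M1 and L-1210, M1 minus L-1210 was -3.36 for miR-135a*, 2.52 for miR-15b*, 2.97 for miR-425* and 3.16 for miR-872*. Between PYS and L-1210, PYS minus L-1210 was -2.32 for let-7a*, 2.42 for miR-16*, 4.12 for miR-22*, 8.66 for miR-30a*, 3.27 for miR-30e*, -5.64 for miR-31* and 7.29 for miR-99b*. Between PYS and M1, PYS minus M1 was -4.35 for let-7a*, 5.94 for miR-135a*, -3.58 for miR-29a*, 7.0 for miR-30a*, 2.59 for miR-30e*, -2.93 for miR-425* and 6.80 for miR-99b*. The differences of PYS from a single line are given for the 3 controls together only. By these the miR-30a* and miR-99b* strands were higher in PYS than in either leukaemia line.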

How the results depend on the processing

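The control RNA decided many directions, and the cause was not tested. With MammU6 alone, changes that were negative became positive in L-1210 for let-7i* (1.95), miR-138* (1.20), miR-15a* (1.62), miR-15b* (0.51), miR-16* (0.76), miR-17* (1.39), miR-191* (1.63), miR-199b* (1.52), miR-200a* (2.02), miR-22* (0.38), miR-322* (0.31), miR-425* (0.34), miR-7a* (1.23), miR-872* (0.55), miR-877* (1.10) and miR-93* (0.84). In PYS they did so for let-7a* (0.77), miR-15b* (1.64), miR-191* (1.76), miR-29b* (1.91), miR-29c* (1.75), miR-425* (0.38), miR-7a* (0.56) and miR-93* (1.70). With snoRNA202 alone, positive changes in L-1210 became negative for let-7a* (-0.59), miR-130b* (-0.0381), miR-135a* (-0.53), miR-18a* (-1.13), miR-181a-1* (-1.19), miR-20a* (-1.65), miR-24-2* (-0.49), miR-27b* (-1.46), miR-33* (-0.65) and miR-378* (-0.0373), and miR-20a* (-1.01) and miR-33* (-0.0117) did so without MammU6. With snoRNA135 alone miR-16* (-0.0202) and miR-30e* (-0.0037) did so in PYS. With quantile normalization the sign turned in L-1210 for let-7i* (1.41), miR-138* (1.41), miR-199b* (2.16), miR-200a* (2.30), miR-218-2* (0.94) and miR-93* (0.11), and in M1 for miR-193* (2.52), miR-196a* (3.51), miR-199b* (2.41) and the strand differences of miR-135a (-0.88) and miR-378 (2.90). With a Ct limit of 32 miR-470* in M1 was at -0.0211. With MammU6 alone 24 star strands differed between L-1210 and M1. Without the detection filter 95 of 97 differed among groups, and 77, 79 and 84 changed in L-1210, M1 and PYS, since undetected assays at the limit then follow the controls. Over the 40 detected in every replicate with a value the counts were 38, 22, 25 and 28, with 25 between L-1210 and M1 and 24 for PYS against the leukaemias. This set is smaller and leaves out every strand not detected in a group. Such bounds made up 10 to 19 of the called changes in each comparison. Over pairs on the same card the counts were 2 of 2 among groups, 0 of 3 in L-1210, 0 of 2 in M1 and 2 of 3 in PYS by limma, from fewer pairs.

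Leaving out 1 replicate gave 61 to 62 star strands differing among groups, 34 to 39 changed in L-1210, 37 to 42 in M1, 46 to 48 in PYS, 33 to 39 between L-1210 and M1 and 41 to 43 for PYS against the leukaemias. For strand differences it gave 29 to 34 among groups, 16 to 19 in L-1210, 18 to 23 in M1 and 22 to 29 in PYS. Whether the replicate numbers pair the samples is not known. Same-numbered replicates of different groups had a median correlation of -0.0584 in their deviations (-0.4527 to 0.3338), with 3 of 18 over 0.1. For other-numbered replicates the median was 0.0146, with 13 of 36 over 0.1. With 3 replicates per group these values cannot exclude a pairing. With the replicate number as a block 62 star strands differed among groups, and 38, 41 and 47 changed in L-1210, M1 and PYS. Strands near Ct 35 have no order below it.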
